A study of Homo sapiens with 16 samples.

Results

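The tetraspanins are a family of small membrane proteins. The genes described here are the rows of the deposited count table whose symbol is TSPAN followed by digits only, together with CD9, CD37, CD53, CD63, CD81, CD82, CD151, PRPH2 and ROM1, which are tetraspanins by other names. The rule gave 31 genes of the 35993 in the table, and 27 of them passed the filter on low counts and were tested among 21297 genes. The other 4 (CD37, TSPAN11, TSPAN16 and TSPAN32) were not tested. The cells were 4 established lines of human bladder cancer, TCCSUP, RT112, J82 and 253J, with the genotype given as WT. Each line was seeded 24 h before treatment and was then given CM-1758, a histone deacetylase inhibitor, at its own IC50 for 48 h, or 0.01% DMSO as the vehicle control by the labels, while a legend of the study calls the controls untreated. The 8 groups held 2 libraries each, from independent biological replicates, which makes 16 libraries in all. Total counts ran from 27655401 to 32537104 in the control libraries and from 22506431 to 31547585 with CM-1758. Since the dose was the IC50 of each line, dose and cell line cannot be told apart when responses are compared between lines. TCCSUP was grown in EMEM and the other lines in DMEM, so the medium and this line cannot be told apart either.

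Tetraspanins span the membrane several times and expose a small and a large outer loop, and the large loop carries a Cys-Cys-Gly motif that marks the family. They have few ligands of their own and act by holding integrins, immunoglobulin-domain proteins, proteases and signalling receptors together in membrane patches. CD63, CD9 and CD81 are used as markers of extracellular vesicles, the TspanC8 group escorts the protease ADAM10 to the cell surface, and CD151 binds laminin-binding integrins. In the urothelium the best known relatives are UPK1A and UPK1B, which build the uroplakin plaques and which the naming rule did not take.

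The label of the cells was compared with marker genes. Of 14 urothelial and epithelial markers, KRT19 was the most abundant in 7 libraries, KRT18 in 4, KRT8 in 4 and KRT7 in 1, all of them keratins. KRT18 had mean levels from 855 to 2326 CPM (the count scaled to a fixed library total after TMM normalization) in the control groups. The urothelial factor GATA3 stood at 37.4 ± 1.37 CPM in RT112 control cells (mean ± SD, n = 2) at 6.29 ± 1.17 CPM in TCCSUP, and at 0.374 ± 0.0675 and 0.760 ± 1.07 CPM in 253J and J82. UPK1B, which is not among the 14, stood at 1407 ± 154 CPM in RT112, at 1.35 ± 0.829 CPM in TCCSUP, and had 0 counts in the control libraries of 253J and J82. GATA3 and UPK1B were thus at or near 0 in 253J and J82, but they do not stand for the whole list. Over the 16 libraries the mean log2 CPM was 5.49 for PPARG, 3.64 for ELF3 and 2.53 for FOXA1, against 1.67 for GATA3. It was 1.21 for TP63 and -0.678 for GRHL3. The mesenchymal marker VIM stood at 1498 ± 271 CPM in 253J, 296 ± 24.8 in J82, 3.85 ± 0.145 in TCCSUP and 0.444 ± 0.389 in RT112. The 6 mesenchymal markers together went from a mean of 6953 to 620.2 CPM with CM-1758 in TCCSUP, where COL1A2 led in level, from 11.54 to 61.7 in RT112, from 2067 to 1527 in 253J and from 1111 to 783 in J82. Of these markers 1 rose and 5 fell in TCCSUP, 5 and 0 in RT112, 1 and 2 in 253J, and 1 and 2 in J82. Of 14 blood cell markers 8 were tested, and their summed level ran from 0.948 to 21.3 CPM over the libraries, with CD14 as the most abundant in 7 libraries, ITGAM in 6, PTPRC in 2 and LYZ in 1, and with MS4A1 at 0 in all of them. In TCCSUP the blood markers CD14 and PTPRC reached 11.1 and 9.58 CPM in control. With CM-1758, KRT18 fell in TCCSUP (-2.57 ± 0.24 on the log2 scale) and 253J (-1.60 ± 0.24) and rose in J82 (0.66 ± 0.23). Of the 14 epithelial markers, all tested, 5 rose and 6 fell in TCCSUP, 4 and 4 in 253J, 6 and 1 in J82, and 3 and 3 in RT112. Of the 8 tested blood markers 4 rose and 1 fell in TCCSUP, 3 and 0 in RT112, 3 and 0 in J82, and 1 and 0 in 253J. The shares of all genes called higher and lower were 28.8% and 22.4% in 253J, 32% and 22.1% in TCCSUP, 27.4% and 20.2% in RT112 and 24% and 18.5% in J82. The part of these markers in the tetraspanin values was not tested.

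The family motif can be read in the coding sequences. All 31 genes held at least 1 in-frame run of codons for Cys-Cys-Gly in their GENCODE v29 coding sequence, and the last such run is shown with 3 codons on either side for the genes that the results turn on, to show how short the shared part is. The capitals mark the codons for Cys, Cys and Gly.

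TSPAN8: gagtttaaaTGCTGCGGTttggtcaat
TSPAN12: gagtttaagTGCTGTGGAgtagtatat
TSPAN13: aatctaaacTGCTGTGGGttccgaagt
TSPAN33: aagtttagcTGCTGTGGAgggatttcc
TSPAN7: agcctgagcTGCTGTGGTgtgcagaac
TSPAN15: aagttcaagTGCTGTGGCggggaggac
CD63: gattttaagTGCTGTGGGgctgctaac
CD82: caggtgaagTGCTGCGGCtgggtcagc

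The motif was written with different codons, for example TGCTGCGGT in TSPAN8 and TGCTGTGGG in CD63.

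Before treatment, CD63, CD151 and CD9 held the first places among the tetraspanins of RT112 and TCCSUP when counts were set against merged exon length. CD151 and CD63 also led in 253J and J82, followed there by TSPAN3 (82.7 ± 2.30 CPM per kb, mean ± SD, n = 2) in 253J and by TSPAN4 in J82. CD63, a tetraspanin of late endosomes and secreted vesicles, had 382 ± 22.3 CPM per kb in TCCSUP, 328 ± 26.5 in 253J, 202 ± 12.6 in RT112 and 188 ± 49.4 in J82. CD151 had 299 ± 22.4, 375 ± 22.5, 139 ± 6.83 and 338 ± 57.3 CPM per kb in the same order of lines, and its level in RT112 was below that of every other line (adjusted p between 1.71e-06 and 2.51e-05 over the pairs), while 253J, J82 and TCCSUP did not differ from each other at the 0.05 threshold. CD9 was at 177 ± 4.65 CPM per kb in RT112 and 148 ± 15.1 in TCCSUP, against 70.7 ± 12.4 in 253J and 73.3 ± 2.09 in J82, so RT112 and TCCSUP formed the upper pair and 253J and J82 the lower pair, with no called difference inside either pair. In J82, TSPAN4, known from the retraction fibre vesicles called migrasomes, was at 102 ± 25.7 CPM per kb and stood above CD9. The control level differed between the lines for 25 of the 27 tested tetraspanins, where 78.8% of all tested genes did. The genes without such a difference were CD53 and TSPAN18, both near 0 counts in control. The 25 include PRPH2, which reached a mean of 10 counts in the TCCSUP groups only and passed the filter through them. They also include TSPAN8, whose level in RT112 was known when the members were chosen. The count is therefore a description.

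Several tetraspanins were nearly private to a line or nearly missing from it. TSPAN1, an epithelial tetraspanin, was at 107 ± 10.6 CPM per kb in RT112 control cells and between 0.186 and 3.46 in the other lines, and RT112 exceeded TCCSUP by 6.51 ± 0.30 (adjusted p = 1.41e-10) on the log2 scale. TSPAN12 was likewise highest in RT112, at 32.2 ± 1.46 CPM per kb, and lowest in TCCSUP, at 0.119 ± 0.0323. TSPAN8 had its highest level in J82, at 22.6 ± 3.20 CPM per kb, followed by RT112 at 5.51 ± 0.205, TCCSUP at 1.99 ± 0.352 and 253J at 0.105 ± 0.0920, and J82 exceeded TCCSUP by 3.502 ± 0.45 (adjusted p = 1.34e-05) on the log2 scale. The level in RT112 was known when the members were chosen and is a description. J82 stood apart by low levels of CD82, TSPAN13 and TSPAN15. CD82, described as a metastasis suppressor, was at 1.59 ± 1.31 CPM per kb there against 37.5 ± 1.17 to 49.8 ± 5.17 elsewhere. TSPAN13 was at 2.03 ± 0.778 in J82 against 18.8 ± 2.23 to 43.8 ± 4.33, and TSPAN15 at 1.36 ± 0.707 against 23.8 ± 4.91 to 52.3 ± 2.49. TSPAN7, a tetraspanin of neurons, had counts in the control cells of 253J alone. The map of levels by library shows these differences side by side.

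**Figure D1:**
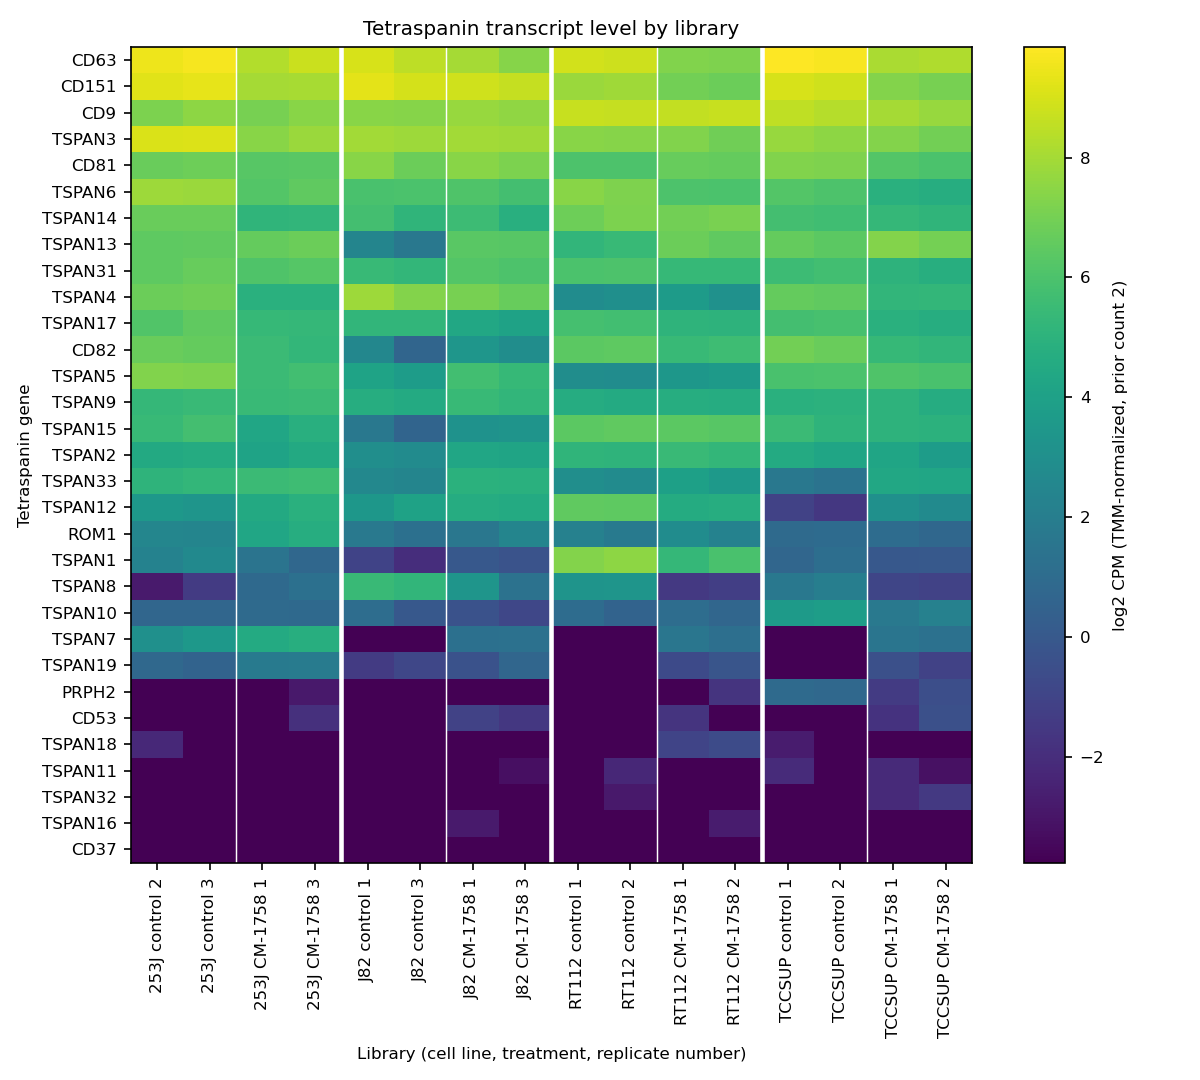
Colour map of the log2 CPM (TMM-normalized, prior count of 2) of the 31 tetraspanin genes (rows) in the 16 libraries (columns, named by cell line, treatment and replicate number). CD63, CD151 and CD9 are bright in every library, TSPAN7 is dark in the control libraries of J82, RT112 and TCCSUP and lighter with CM-1758, and TSPAN8 is lighter in J82 control and darker after treatment in J82, RT112 and TCCSUP.

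With CM-1758 the tetraspanins moved in both directions, and the balance differed between lines. Calls of higher or lower rest on a Benjamini-Hochberg adjusted p under 0.05 in the quasi-likelihood test of edgeR, fitted to all 21297 tested genes, and every adjusted p given here comes from that fit. In 253J 6 members were higher and 13 lower, against 28.8% and 22.4% of all tested genes. In J82 13 were higher and 5 lower, against 24% and 18.5% of all genes. In RT112 7 were higher and 9 lower, against 27.4% and 20.2%. In TCCSUP 6 were higher and 13 lower, against 32% and 22.1%. The members passed the low-count filter partly through the treated groups: CD53 and TSPAN18 had a mean of at least 10 counts in only 1 group each, PRPH2 in 2, TSPAN7 in 5 and TSPAN19 and TSPAN8 in 6. Without CD53 and TSPAN18, 5 members were higher in TCCSUP, 6 in RT112 and 12 in J82, and the other counts stayed as they were. Large changes, with a log2 fold change past 2 in size and an adjusted p under 0.01, were found for 5 members in J82 and 5 in TCCSUP, against 10.1% and 17.5% of all genes, and for 2 in 253J and 3 in RT112, against 12.9% and 12.8%. Requiring at least 10 counts in every library left fewer members to test, and fewer had a large change in every line, as given in the closing section. The response itself differed between lines for 23 of 27 members by the interaction test, against 51.9% of all genes. These counts include TSPAN8, whose fall in RT112 was known when the members were chosen. Without TSPAN8, CD53 and TSPAN18 the response differed for 21 of 24 members, and in RT112 6 were higher, 8 lower and 2 had a large change.

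Over the tested members the log2 fold change had a median of -0.54 in TCCSUP, -0.38 in 253J, 0.06 in RT112 and 0.56 in J82. Over all tested genes it was 0.20, 0.10, 0.12 and 0.05 in the same order. With genes whose control or treated group was at the floor of 3 counts set to their bound, the medians of the members were -0.50, -0.20, 0.06 and 0.56. When a library was left out, the medians ran from -0.70 to -0.41 in TCCSUP and from -0.46 to -0.29 in 253J. They ran from 0 to 0.11 in RT112 and from 0.34 to 0.64 in J82. The 253J median also moved with the filter and with the replicate block, as given in the closing section. In 253J that block rests on 1 control and 1 treated library. Scaling by library size alone, in place of TMM, raised the median of all genes by 0.31 in TCCSUP, 0.27 in 253J, 0.15 in RT112 and 0.15 in J82, and no call of a tetraspanin given with values in every library changed its direction with it. The medians of the members were then -0.23 in TCCSUP, -0.11 in 253J and 0.21 in RT112.

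**Figure D2:**
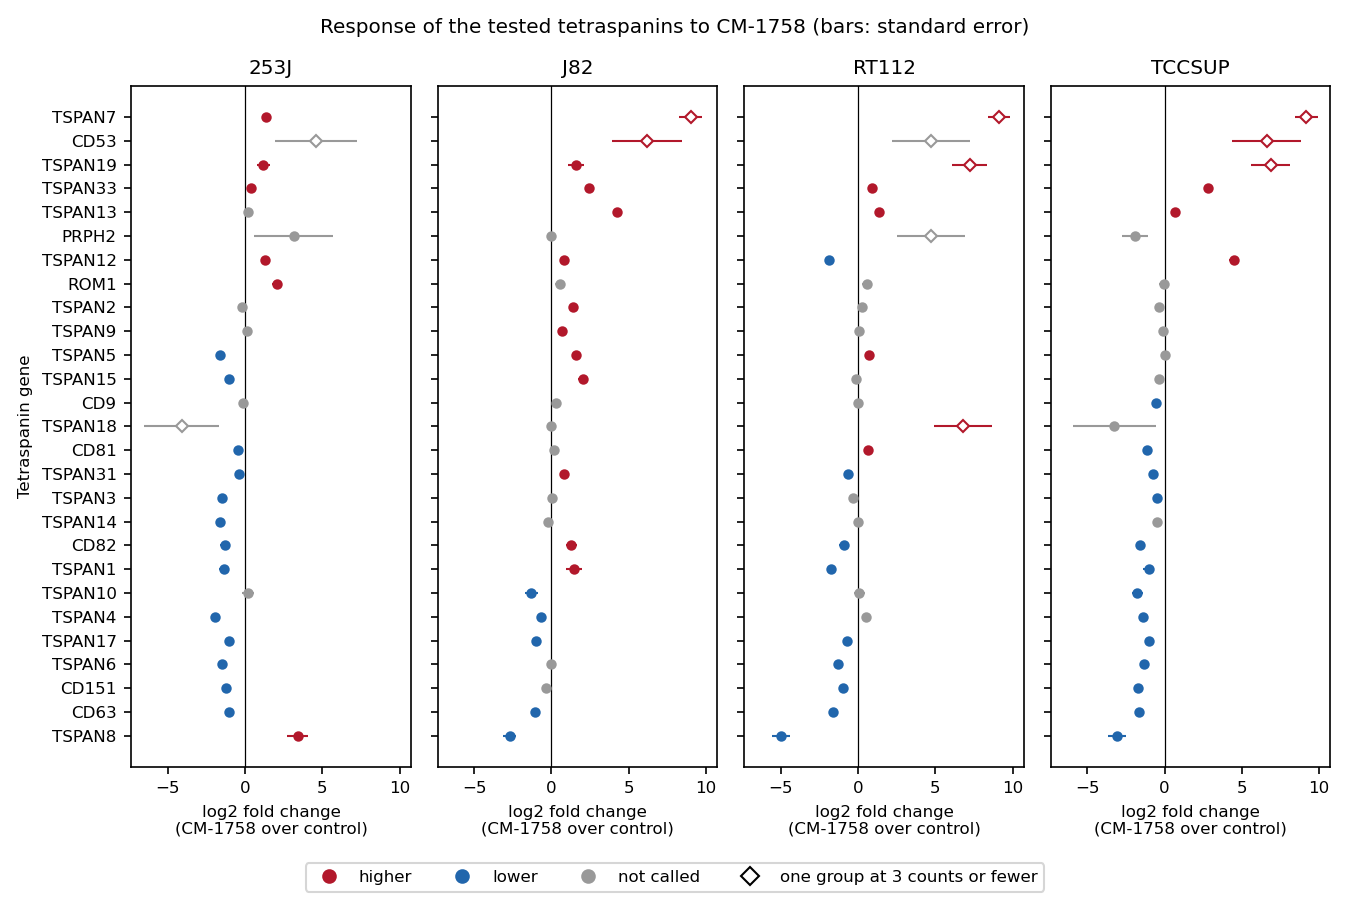
Log2 fold change of CM-1758 over control (x axis) of the 27 tested tetraspanins (y axis) in each cell line, with bars for the standard error, red points for genes called higher, blue for lower and grey for not called. Open diamonds mark genes with a group at 3 counts or fewer, whose fold change is not a measured size. TSPAN7, TSPAN19 and TSPAN33 are red in all 4 panels, CD63 and TSPAN17 are blue in all 4, and TSPAN8 is red in 253J and blue elsewhere.

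Summed over the 31 genes, the tetraspanins took less of the library after CM-1758 in 3 lines. The sum was 3220 and 3480 CPM in the control libraries of 253J and 1597 and 1892 CPM with CM-1758. It was 2321 and 2314 against 1612 and 1573 CPM in RT112, and 2908 and 2650 against 1486 and 1313 CPM in TCCSUP. In J82 the groups overlapped, with 2291 and 1797 CPM in control and 1995 and 1657 CPM with CM-1758. As a share of the raw counts, without TMM, the members took 0.295% and 0.329% in 253J control and 0.178% and 0.214% with CM-1758, and the 2 groups of J82 again overlapped. CD63 was the most abundant member by CPM in 10 libraries, CD151 in the 4 of J82 and CD9 in the 2 treated libraries of RT112. The sums are relative levels, so that less RNA of these genes per cell and fewer cells that express them cannot be told apart.

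**Figure D3:**
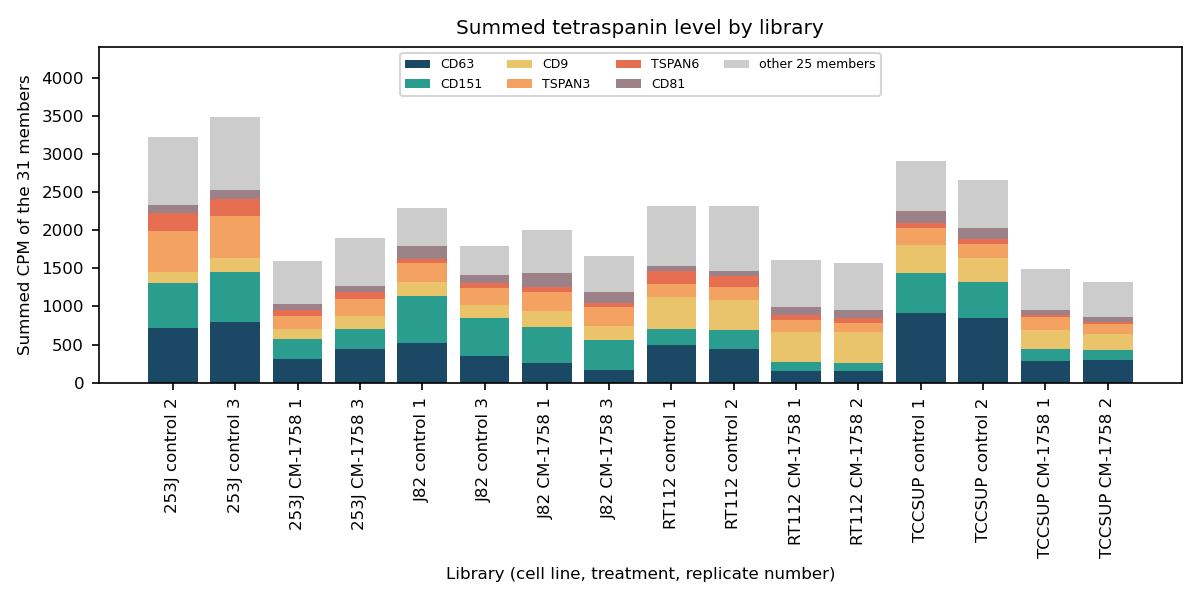
Stacked bars of the CPM of the tetraspanins in each of the 16 libraries, with CD63, CD151, CD9, TSPAN3, TSPAN6 and CD81 in colour and the remaining 25 members in grey. The bars of 253J, RT112 and TCCSUP are lower with CM-1758 in every library, those of J82 run from 1657 to 2291 CPM with overlapping groups, and the CD63 segment shrinks in all 4 lines.

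TSPAN8, a tetraspanin of digestive epithelia that is abundant in several carcinomas, was picked out with its fall in RT112 already known, and its values there are a description. In RT112 it had 295 and 300 counts in control against 7 and 9 counts with CM-1758, or 9.64 and 10.2 CPM in control against 0.274 and 0.343 CPM with CM-1758, a 32.1-fold lower mean and a log2 fold change of -4.98 ± 0.59. In J82, where it started highest, it had 44.6 and 36.5 CPM in control against 9.88 and 2.54 CPM with CM-1758, a log2 fold change of -2.71 ± 0.43 (adjusted p = 0.000151). The treated J82 libraries differed widely, and the log2 fold change was -3.92 without CM-1758 replicate 1 and -2.04 without replicate 3. In TCCSUP it had 3.13 and 4.02 CPM in control against 0.449 and 0.393 CPM with CM-1758, a log2 fold change of -3.07 ± 0.58 (adjusted p = 0.000441). TSPAN8 went the other way in 253J, where counts rose from 2 and 8 to 44 and 68 counts, or 0.0724 and 0.306 CPM in control against 1.74 and 2.29 CPM with CM-1758, a log2 fold change of 3.41 ± 0.69 (adjusted p = 0.000779). The base in 253J was low, and the value was 2.71 without control replicate 2 and 4.72 without control replicate 3. The control and treated values did not overlap in any of the 4 lines.

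Among the lines other than RT112, the TSPAN8 response of 253J exceeded that of J82 by 6.12 ± 0.80 (adjusted p = 4.56e-05) and that of TCCSUP by 6.48 ± 0.90 (adjusted p = 8.36e-05) on the log2 scale. J82 minus TCCSUP was 0.36 ± 0.72 (adjusted p = 0.843), which did not pass. After treatment the means of RT112, TCCSUP and 253J ran from 0.308 to 2.02 CPM. The 5 genes whose log2 CPM followed TSPAN8 most closely over the 16 libraries, among 14207 genes, were ZNF708, ENDOG, TRIM39, MFSD14C and SRP14, with Pearson correlations of 0.912, 0.890, 0.886, 0.885 and 0.882. These are descriptions over libraries that share cell lines and treatments.

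Promoter windows are shown for TSPAN8, TSPAN12, TSPAN13 and TSPAN33, 4 of the 7 members with a RefSeq window and a large change, picked after their CG content was seen to show its range. RefSeq promoters of build GRCh38.p14, which run from 250 bases before to 50 bases after the start, were matched to 23 of the 31 genes in 43 windows. Capitals mark each CG.

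TSPAN8, chr12:71157950-71158249 (minus strand): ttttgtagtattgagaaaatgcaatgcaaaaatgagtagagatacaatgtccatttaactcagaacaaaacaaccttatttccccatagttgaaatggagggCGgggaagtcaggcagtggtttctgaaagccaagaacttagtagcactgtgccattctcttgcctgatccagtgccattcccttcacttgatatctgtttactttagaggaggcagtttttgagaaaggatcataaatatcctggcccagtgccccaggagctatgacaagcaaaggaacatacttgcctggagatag
TSPAN12, chr7:120858095-120858394 (minus strand): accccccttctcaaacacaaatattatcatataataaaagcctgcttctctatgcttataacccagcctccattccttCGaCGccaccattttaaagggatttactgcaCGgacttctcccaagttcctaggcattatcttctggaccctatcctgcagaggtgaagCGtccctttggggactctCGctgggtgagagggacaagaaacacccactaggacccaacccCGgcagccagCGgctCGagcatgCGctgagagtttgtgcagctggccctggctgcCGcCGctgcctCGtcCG
TSPAN13, chr7:16753505-16753804 (plus strand): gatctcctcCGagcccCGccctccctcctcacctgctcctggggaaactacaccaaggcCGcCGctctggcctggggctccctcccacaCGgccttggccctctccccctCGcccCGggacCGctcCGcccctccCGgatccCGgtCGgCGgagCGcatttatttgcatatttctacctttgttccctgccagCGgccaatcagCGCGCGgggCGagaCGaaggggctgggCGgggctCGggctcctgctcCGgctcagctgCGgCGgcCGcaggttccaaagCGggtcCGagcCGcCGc
TSPAN33, chr7:129144457-129144756 (plus strand): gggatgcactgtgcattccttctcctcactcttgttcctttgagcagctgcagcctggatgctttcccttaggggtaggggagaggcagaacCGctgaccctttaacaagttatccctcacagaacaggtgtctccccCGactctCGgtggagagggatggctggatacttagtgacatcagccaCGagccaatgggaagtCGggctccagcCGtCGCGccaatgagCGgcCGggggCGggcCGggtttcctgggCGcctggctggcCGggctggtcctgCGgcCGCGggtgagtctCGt

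The window of TSPAN8 held 1 CG, and a second RefSeq window of the gene held 3. TSPAN12 had 13, TSPAN33 had 18 and TSPAN13 had 30. The windows not shown held 12 for ROM1, 14 for TSPAN19 and 20 for TSPAN15. Over 35116 RefSeq promoter windows of the same length the median was 14, and 45.3% held 10 or fewer. The letters CG read the same on both strands, and their count describes the sequence and was not tested against the expression.

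TSPAN12, a part of the receptor for Norrin on retinal vessels, was called in every line, lower in RT112 and higher in the others. In TCCSUP it had 10 and 7 counts in control against 223 and 171 counts with CM-1758, or 0.396 and 0.268 CPM in control against 8.34 and 6.73 CPM with CM-1758, a 22.7-fold higher mean and a log2 fold change of 4.49 ± 0.32 (adjusted p = 5.41e-08). In RT112 it fell, with 92.9 and 87.1 CPM in control against 23.98 and 25.7 CPM with CM-1758 and a log2 fold change of -1.86 ± 0.19 (adjusted p = 3.01e-06). The controls of those lines stood at opposite ends, and the treated libraries of RT112 lay within the range of those of 253J and J82. In 253J it rose from 11.00 and 9.99 to 22.3 and 29.2 CPM, a log2 fold change of 1.30 ± 0.20 (adjusted p = 6.88e-05), and in J82 from 10.9 and 17.1 to 25.5 and 23.3 CPM, a log2 fold change of 0.80 ± 0.20 (adjusted p = 0.00408). No groups overlapped. RT112 and TCCSUP differed in response by -6.35 ± 0.37 (adjusted p = 3.42e-08) on the log2 scale, and 253J and J82 differed by 0.50 ± 0.28 (adjusted p = 0.21), which did not pass.

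TSPAN13 rose most in J82, the line in which it had been low. It had 5.39 and 3.09 CPM in control against 81.9 and 79.2 CPM with CM-1758 there, a 18.99-fold higher mean and a log2 fold change of 4.25 ± 0.23 (adjusted p = 1.09e-08). The treated J82 libraries lay just below the control libraries of 253J and TCCSUP. In RT112 it had 36.05 and 42.6 CPM in control against 112 and 93.5 CPM with CM-1758, a log2 fold change of 1.39 ± 0.19 (adjusted p = 4.01e-05), and in TCCSUP 98.1 and 85.2 CPM in control against 159 and 127 CPM with CM-1758, a log2 fold change of 0.64 ± 0.19 (adjusted p = 0.0101). The call in TCCSUP was lost without control replicate 2 or without CM-1758 replicate 1. In 253J, with 89.6 and 92.4 CPM in control against 98.6 and 109.9 CPM with CM-1758, it was not called (adjusted p = 0.415). The response of J82 exceeded those of 253J, RT112 and TCCSUP, by 3.61 ± 0.29 (adjusted p = 7.85e-07) for TCCSUP.

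TSPAN33, a TspanC8 gene known from red cell precursors and activated B cells, was higher in all 4 lines. In TCCSUP it had 3.09 and 2.60 CPM in control against 20.7 and 19.4 CPM with CM-1758, a 7.04-fold higher mean and a log2 fold change of 2.81 ± 0.17 (adjusted p = 1.63e-08). In J82 it had 5.96 and 5.23 CPM in control against 29.96 and 28.97 CPM with CM-1758, a log2 fold change of 2.40 ± 0.16 (adjusted p = 7.3e-08), and in RT112 7.58 and 6.98 CPM in control against 15.5 and 11.97 CPM with CM-1758, a log2 fold change of 0.91 ± 0.16 (adjusted p = 0.000259). The smallest change was in 253J, which had the highest control level, with 33.96 and 37.9 CPM in control against 45.97 and 49.2 CPM with CM-1758 and a log2 fold change of 0.41 ± 0.15 (adjusted p = 0.0312). This call was lost when any of the 253J libraries was left out. It was also lost with the replicate block, which rests on the replicate 3 pair in this line. Groups did not overlap in any line. J82 and TCCSUP differed by -0.42 ± 0.23 (adjusted p = 0.232) and could not be separated, while both exceeded RT112 and 253J.

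TSPAN7 and TSPAN19 were higher in all 4 lines, as was TSPAN33, against 6.69% of all tested genes that were higher in every line. TSPAN7 had 0 counts in all control libraries of J82, RT112 and TCCSUP. With CM-1758 it had 65 and 70 counts in J82, 75 and 59 in RT112 and 76 and 62 in TCCSUP. Against a floor of 3 counts per library the treated libraries of RT112 stood at least 25.5-fold higher, those of TCCSUP 22.3-fold and those of J82 20.6-fold (adjusted p = 1.06e-06, 9.51e-07 and 2.01e-06). In 253J, where the gene was on before treatment, it rose from 8.29 and 11.2 to 23.2 and 26.8 CPM, a log2 fold change of 1.36 ± 0.25 (adjusted p = 0.000686). The annotation places an exon of AF241726.2 on the same strand over 676 exon bases of TSPAN7, so that reads of these genes may not be told apart.

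TSPAN19 was a low gene throughout. It had 0 counts in the control libraries of RT112 and TCCSUP and, with CM-1758, 14 and 21 counts in RT112 and 18 and 10 in TCCSUP, at least 6.63-fold and 4.49-fold higher (adjusted p = 0.000234 and 0.000522). In 253J it rose from 47 and 37 to 89 and 108 counts, a log2 fold change of 1.20 ± 0.44 (adjusted p = 0.0368), and in J82 from 8 and 13 to 20 and 47 counts, a log2 fold change of 1.56 ± 0.52 (adjusted p = 0.028). The 253J call was lost when any library of the line was left out. It was also lost with DESeq2 fitted to all groups (adjusted p = 0.0819) and with the replicate block, which rests on the replicate 3 pair in this line. The J82 call was lost without control replicate 1 (1.28) and without CM-1758 replicate 3 (0.87). It was also lost with the replicate block (adjusted p = 0.0537) and with the line fitted alone in DESeq2 (adjusted p = 0.232) or edgeR (adjusted p = 0.0885).

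CD63 and TSPAN17 were lower in all 4 lines, against 6.01% of all tested genes. CD63 had 713 and 799.7 CPM in control against 312 and 436 CPM with CM-1758 in 253J, a log2 fold change of -1.02 ± 0.22 (adjusted p = 0.00129). In J82 it had 514 and 353 CPM in control against 256 and 163 CPM with CM-1758, a log2 fold change of -1.05 ± 0.22 (adjusted p = 0.00139). In RT112 it had 487 and 446 CPM in control against 156 and 146 CPM with CM-1758, 3.09-fold lower (adjusted p = 3.63e-05). In TCCSUP it had 919 and 846 CPM in control against 278 and 294 CPM with CM-1758, 3.09-fold lower (adjusted p = 2.61e-05). The treated libraries lay below every control library of their line. The response of CD63 was not shown to differ between lines (interaction adjusted p = 0.157), and the same held for TSPAN17 (interaction adjusted p = 0.529). TSPAN17, a TspanC8 gene, went from 71.1 and 92.2 to 41.2 and 39.03 CPM in 253J and from 37.1 and 36.9 to 20.8 and 16.6 CPM in J82. It went from 57.2 and 52.98 to 34.1 and 32.1 CPM in RT112 and from 53.8 and 59.8 to 28.8 and 26.6 CPM in TCCSUP. Its log2 fold changes were -1.03 ± 0.15, -0.99 ± 0.15, -0.73 ± 0.15 and -1.04 ± 0.15 in 253J, J82, RT112 and TCCSUP, with adjusted p from 3.75e-05 to 0.000908, and its groups did not overlap in any line.

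Among the other widely expressed surface tetraspanins, CD151 was lower in 3 lines. It went from 595 and 648 to 260.0 and 270.3 CPM in 253J, from 222 and 238 to 121 and 109.5 CPM in RT112 and from 523 and 470.0 to 162 and 135 CPM in TCCSUP, with log2 fold changes of -1.23 ± 0.16 (adjusted p = 1.23e-05), -0.998 ± 0.16 (adjusted p = 0.000118) and -1.74 ± 0.16 (adjusted p = 5.72e-07). In J82 it had 627 and 493 CPM in control against 473 and 394 CPM with CM-1758 and was not called (adjusted p = 0.0688), though the groups did not overlap. The call was made without control replicate 3 (-0.53) and with the replicate block (-0.36, adjusted p = 0.0185). The response of J82 differed from that of TCCSUP by 1.37 ± 0.22 (adjusted p = 0.000416) and from that of 253J by -0.86 ± 0.22 for 253J minus J82 (adjusted p = 0.00799), while J82 minus RT112, 0.63 ± 0.22 (adjusted p = 0.0537), did not pass.

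CD9, which binds immunoglobulin-domain partners, was called in TCCSUP only. It had 143 and 184 CPM in control against 133 and 169 CPM with CM-1758 in 253J and 173 and 166 CPM in control against 215 and 192 CPM with CM-1758 in J82. It had 416 and 400.4 CPM in control against 389.8 and 414 CPM with CM-1758 in RT112. The groups overlapped in RT112 and 253J, and the sign of the fold change in both depended on the scaling. The log2 fold changes in these lines were -0.12 ± 0.16, 0.26 ± 0.16 and -0.02 ± 0.16, none of them called. In TCCSUP CD9 was lower, with 366 and 316 CPM in control against 257 and 211 CPM with CM-1758 and a log2 fold change of -0.54 ± 0.16 (adjusted p = 0.0112), a call that was lost without control replicate 1, without CM-1758 replicate 2 and with library size alone (adjusted p = 0.251). The response in TCCSUP was not shown to differ from that in 253J, at 0.43 ± 0.23 (adjusted p = 0.193) for 253J minus TCCSUP, or in RT112, at 0.52 ± 0.23 (adjusted p = 0.11) for RT112 minus TCCSUP, and J82 minus TCCSUP was 0.81 ± 0.23 (adjusted p = 0.0206).

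CD81, a widely expressed tetraspanin that is also used as a vesicle marker, was called in opposite directions. It went from 151 and 147 to 72.9 and 64.1 CPM in TCCSUP, a log2 fold change of -1.12 ± 0.18 (adjusted p = 9.11e-05), and from 65.7 and 65.6 to 102 and 99.1 CPM in RT112, a log2 fold change of 0.62 ± 0.18 (adjusted p = 0.00926). Leaving out either RT112 control library ended the RT112 call. In 253J it went from 105 and 115 to 80.03 and 83.02 CPM, a call at the edge of the threshold (-0.43 ± 0.18 (adjusted p = 0.0499)) that most alternatives did not keep. In J82 it had 169 and 109 CPM in control against 174 and 140.5 CPM with CM-1758, with overlapping groups. RT112 and TCCSUP differed in response by 1.74 ± 0.25 (adjusted p = 0.000105).

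CD82 was lower in 253J, RT112 and TCCSUP and higher in J82, the line with the low control level. It went from 106 and 97.8 to 44.9 and 37.7 CPM in 253J and from 122 and 106 to 40.5 and 36.5 CPM in TCCSUP, with log2 fold changes of -1.30 ± 0.31 (adjusted p = 0.00252) and -1.57 ± 0.31 (adjusted p = 0.000658). In RT112 it went from 84.02 and 87.8 to 42.4 and 48.8 CPM, a log2 fold change of -0.91 ± 0.31 (adjusted p = 0.0231), a call lost when any RT112 library was left out and with library size alone (adjusted p = 0.0609). In J82 it went from 5.77 and 1.53 to 10.3 and 7.34 CPM, a log2 fold change of 1.28 ± 0.36 (adjusted p = 0.00968). The lower treated J82 library was nearer to the higher control library than the control libraries were to each other, and the log2 fold change was 2.53 without control replicate 1 and 0.61 without control replicate 3. The J82 call was lost without CM-1758 replicate 1 (1.09, adjusted p = 0.0555) and with the line fitted alone in DESeq2 (adjusted p = 0.056) or edgeR (adjusted p = 0.0865). J82 differed in response from 253J by -2.58 ± 0.47 for 253J minus J82 (adjusted p = 0.00077).

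Of the 6 TspanC8 genes, which carry ADAM10 through the secretory pathway, 1 was higher and 4 lower in 253J, 1 and 2 in TCCSUP, 2 and 1 in RT112, and 3 and 2 in J82, against 28.8% and 22.4% of all tested genes in 253J, 32% and 22.1% in TCCSUP, 27.4% and 20.2% in RT112 and 24% and 18.5% in J82. TSPAN15 had its large change in J82, from 3.15 and 1.45 to 8.95 and 9.75 CPM, a 4.06-fold higher mean and a log2 fold change of 2.03 ± 0.28 (adjusted p = 4.64e-05), and 2.68 without control replicate 1. In 253J it fell from 42.7 and 53.99 to 19.4 and 27.9 CPM, a log2 fold change of -1.03 ± 0.23 (adjusted p = 0.00174). It had 85.8 and 91.7 CPM in control against 84.4 and 79.2 CPM with CM-1758 in RT112 and 46.3 and 34.5 CPM in control against 32.8 and 31.4 CPM with CM-1758 in TCCSUP, and was called in neither, though with edgeR on the line alone it was called lower in TCCSUP (-0.36, adjusted p = 0.0448). Its groups did not overlap in any line. TSPAN5 was also called in opposite directions, with log2 fold changes of -1.58 ± 0.16 in 253J, 1.59 ± 0.17 in J82 and 0.68 ± 0.17 in RT112, all called, and 0.04 ± 0.16 in TCCSUP, not called. TSPAN14 was lower in 253J alone (log2 fold change -1.58 ± 0.23 (adjusted p = 3.31e-05)), and TSPAN10 was lower in J82 and TCCSUP. ADAM10 itself had mean CPM of 1771 ± 6.18 in 253J control and 309.5 ± 56.4 with CM-1758, a log2 fold change of -2.52 ± 0.17 (adjusted p = 3.81e-08). It was also lower in TCCSUP (-1.34 ± 0.16) and not called in J82 or RT112. ADAM17, another membrane sheddase, was likewise lower in 253J (-1.52 ± 0.14) and TCCSUP (-0.35 ± 0.14).

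Both retinal tetraspanins were low in control cells. ROM1, which shapes the discs of photoreceptors, rose from 5.43 and 5.36 to 19.7 and 25.8 CPM in 253J, a 4.22-fold higher mean and a log2 fold change of 2.08 ± 0.29 (adjusted p = 3.21e-05). It had 3.30 and 2.36 CPM in control against 3.08 and 5.28 CPM with CM-1758 in J82 and 4.54 and 3.49 CPM in control against 7.24 and 4.80 CPM with CM-1758 in RT112. In TCCSUP it had 1.82 and 1.95 CPM in control against 1.98 and 1.65 CPM with CM-1758, and it was called in none of these lines, with overlapping groups in J82 and TCCSUP. It was called higher in J82 without CM-1758 replicate 1 (0.98, adjusted p = 0.0273) and in RT112 when at least 10 counts in every library were required (0.71, adjusted p = 0.0414). The response of 253J exceeded that of TCCSUP by 2.13 ± 0.44 (adjusted p = 0.00216). PRPH2, the partner of ROM1, was called in no line. It had 46 and 45 counts in control against 8 and 16 counts with CM-1758 in TCCSUP, or 1.82 and 1.72 CPM in control against 0.299 and 0.629 CPM with CM-1758 (adjusted p = 0.0707) and at most 6 counts in any library of the other lines.

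TSPAN1 was lower in 3 lines and higher in J82. In RT112, where it was abundant, it went from 160.4 and 185 to 39.5 and 61.2 CPM, a log2 fold change of -1.78 ± 0.23 (adjusted p = 2.13e-05). In 253J it went from 4.67 and 6.51 to 2.73 and 1.65 CPM, a log2 fold change of -1.36 ± 0.29 (adjusted p = 0.00109). The replicate block, which rests on the replicate 3 pair in 253J, moved this value to -1.97. In TCCSUP it went from 40 and 57 to 24 and 24 counts (-1.03 ± 0.37, adjusted p = 0.0294), and in J82 from 11 and 5 to 26 and 22 counts (1.48 ± 0.52, adjusted p = 0.0315). Both of the last calls were lost in several of the leave-out fits and with DESeq2 fitted to the line alone. The TCCSUP call was also lost with library size alone (-0.72, adjusted p = 0.125) and the J82 call with edgeR on the line alone (adjusted p = 0.134), and the J82 value was 2.17 without control replicate 1. TSPAN31 lies against CDK4 on the opposite strand, with 1078 shared exon bases, and the counting is not stated to use strand, so its reads and those of CDK4 cannot be told apart with certainty. It went from 42.6 and 37.98 to 73.01 and 65.1 CPM in J82 (0.78 ± 0.14 (adjusted p = 0.000327)) and from 88.2 and 101 to 67.9 and 76.8 CPM in 253J (-0.38 ± 0.13 (adjusted p = 0.026)). It went from 62.6 and 65.00 to 41.3 and 40.8 CPM in RT112 (-0.64 ± 0.14 (adjusted p = 0.00139)) and from 46.9 and 52.98 to 32.1 and 27.5 CPM in TCCSUP (-0.75 ± 0.14 (adjusted p = 0.000343)). The call in 253J was lost without control replicate 3, without CM-1758 replicate 1 and with library size alone (adjusted p = 0.533). It was also lost without a filter (adjusted p = 0.0531) and with at least 10 counts in every library (adjusted p = 0.0536). The replicate block, which rests on the replicate 3 pair in 253J, ended it too.

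In all, 8 of the 27 tested members were called higher in a line and lower in another, namely CD81, CD82, TSPAN1, TSPAN5, TSPAN8, TSPAN12, TSPAN15 and TSPAN31, against 12.9% of all tested genes. The remaining members were called in 1 direction only or not at all. TSPAN4 was lower in 253J (-1.97 ± 0.20), J82 (-0.71 ± 0.19) and TCCSUP (-1.38 ± 0.20), and TSPAN6 in 253J (-1.48 ± 0.15), RT112 (-1.31 ± 0.15) and TCCSUP (-1.32 ± 0.15). TSPAN3 was lower in 253J (-1.46 ± 0.17) and TCCSUP (-0.50 ± 0.17). TSPAN2, known from oligodendrocytes, was higher in J82 (1.37 ± 0.19), as was TSPAN9, known from platelets (0.66 ± 0.14). TSPAN18 had 0 and 0 counts in RT112 control and 11 and 15 with CM-1758, the 1 group through which it passed the filter, so nothing is read from its call there. The tetraspanins of blood cells were at or near 0. CD53 had 0 counts in all control libraries and between 0 and 17 with CM-1758, and it passed the filter through treated TCCSUP cells alone, so nothing is read from its calls in J82 and TCCSUP. CD37 had 0 counts in all 16 libraries, and TSPAN11, TSPAN16 and TSPAN32 had at most 4, 2 and 7 counts in any library.

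The partners of the tetraspanins were read from lists of genes known to bind them. IGSF8, an immunoglobulin-domain partner of CD9 and CD81, rose in every line, by 2.003 ± 0.19 in J82 and by 0.59 ± 0.18 to 0.91 ± 0.18 in the others on the log2 scale. PTGFRN, its close relative and the other main partner, fell from 138 ± 10.5 to 11.8 ± 1.30 CPM in 253J, a log2 fold change of -3.55 ± 0.36 (adjusted p = 1.47e-06). It also fell in TCCSUP (-3.27 ± 0.36) and RT112 (-2.02 ± 0.34), and in J82 it was not called. Over the 7 tested genes of this list 2 were higher and 5 lower in 253J, 1 and 4 in TCCSUP, 1 and 1 in RT112, and 2 and 0 in J82, against 28.8% and 22.4% of all tested genes in 253J, 32% and 22.1% in TCCSUP, 27.4% and 20.2% in RT112 and 24% and 18.5% in J82. CD46, a regulator of complement, and CD47, a signal against phagocytosis, were lower in 253J (-0.50 ± 0.18 and -1.10 ± 0.18) and called in no other line. EPCAM, an epithelial adhesion molecule, was higher in 253J (1.72 ± 0.36) and lower in TCCSUP (-0.70 ± 0.21). CD44, the hyaluronan receptor, fell in 253J (-2.29 ± 0.38) and TCCSUP (-2.35 ± 0.38). CLDN1, a tight junction protein, rose in J82 (2.57 ± 0.24) and fell in 253J (-1.61 ± 0.23) and TCCSUP (-1.23 ± 0.23).

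Of the laminin-binding integrin chains that CD151 holds, ITGA7, known from muscle, was higher in all 4 lines. It went from 0.581 ± 0.359 to 17.97 ± 1.62 CPM in J82, a log2 fold change of 4.95 ± 0.29 (adjusted p = 2.51e-08), and rose by 1.02 ± 0.21 in TCCSUP, 3.99 ± 0.28 in RT112 and 4.24 ± 0.25 in 253J. The far more abundant ITGA3 and ITGB1 were lower in 253J (-1.06 ± 0.19 and -1.12 ± 0.16) and TCCSUP (-1.24 ± 0.19 and -1.15 ± 0.16). In RT112 ITGB1 was higher (0.75 ± 0.16) and ITGA3 was not called (0.03 ± 0.18), and in J82 neither was called. ITGA6 was higher in J82 (0.57 ± 0.18) and lower in TCCSUP (-0.71 ± 0.18). Of the 5 chains 1 was higher and 2 lower in 253J, 1 and 3 in TCCSUP, 2 and 0 in RT112, and 3 and 0 in J82, against 28.8% and 22.4% of all tested genes in 253J, 32% and 22.1% in TCCSUP, 27.4% and 20.2% in RT112 and 24% and 18.5% in J82.

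Of 32 genes of vesicle formation and release, 18 were higher and 3 lower in 253J, 5 and 10 in TCCSUP, 9 and 10 in RT112, and 6 and 7 in J82, against 28.8% and 22.4% of all tested genes in 253J, 32% and 22.1% in TCCSUP, 27.4% and 20.2% in RT112 and 24% and 18.5% in J82. SMPD3, a sphingomyelinase used in vesicle budding, rose in all 4 lines with a large change in each, from 0 counts in 253J control to 5.26 ± 0.488 CPM, at least 45.7-fold, and by 2.95 ± 0.40 in TCCSUP, 3.41 ± 0.43 in J82 and 2.19 ± 0.37 in RT112. SDC1, a syndecan that joins the vesicle pathway, fell in all 4 lines, by most in 253J (-3.16 ± 0.19 (adjusted p = 1.74e-08)) and TCCSUP (-2.66 ± 0.18 (adjusted p = 3.79e-08)). SDC4, another syndecan, was lower in 253J (-0.75 ± 0.22). RAB11A, a GTPase of recycling endosomes, was higher in 253J (1.17 ± 0.18), RT112 (0.86 ± 0.18) and J82 (0.56 ± 0.18). PDCD6IP, the ESCRT accessory protein ALIX, was lower in J82 (-0.50 ± 0.13) and TCCSUP (-0.52 ± 0.13). SDCBP, the syntenin that links syndecans to CD63, rose in 253J (1.22 ± 0.15) and RT112 (0.64 ± 0.14) and fell in J82 (-0.47 ± 0.14).

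TSPAN12 shares its receptor with FZD4 and LRP5. Of FZD4, LRP5, LRP6 and the ligand gene NDP, 4 were higher in J82, 3 were higher and 1 lower in RT112, 1 was higher and 2 lower in TCCSUP, and 1 was higher and 1 lower in 253J, against 28.8% and 22.4% of all tested genes in 253J, 32% and 22.1% in TCCSUP, 27.4% and 20.2% in RT112 and 24% and 18.5% in J82. FZD4 rose in RT112 (1.65 ± 0.21), TCCSUP (1.63 ± 0.21) and J82 (0.54 ± 0.20). LRP6, a co-receptor of Wnt signals, rose in J82 (1.46 ± 0.17) and RT112 (0.47 ± 0.16). LRP5 fell in 253J from 73.1 ± 8.45 to 13.03 ± 1.34 CPM (-2.49 ± 0.25 (adjusted p = 1.39e-06)), fell in RT112 and TCCSUP, and rose in J82 (0.63 ± 0.24 (adjusted p = 0.0489)). NDP went from 7.995 ± 0.00654 to 1.45 ± 0.166 CPM in TCCSUP (-2.45 ± 0.54 (adjusted p = 0.0019)), where TSPAN12 rose, and from 0.181 ± 0.256 to 1.49 ± 0.0144 CPM in 253J (2.98 ± 0.71 (adjusted p = 0.00321)). Of 5 uroplakin genes 0 were higher and 3 lower in RT112, the line with the high levels, 1 and 1 in TCCSUP, 2 and 0 in 253J, and 2 and 0 in J82, against the shares of all genes just given. UPK1B fell in RT112 from 1407 ± 154 to 352 ± 9.78 CPM (-2.001 ± 0.27 (adjusted p = 8.83e-05)), UPK1A from 5.04 ± 0.245 to 0.251 ± 0.0319 CPM (-4.30 ± 0.72 (adjusted p = 0.000317)) and UPK3B, which is not a tetraspanin, from 73.3 ± 8.52 to 24.3 ± 2.07 CPM (-1.60 ± 0.25 (adjusted p = 0.000103)).

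**Figure D4:**
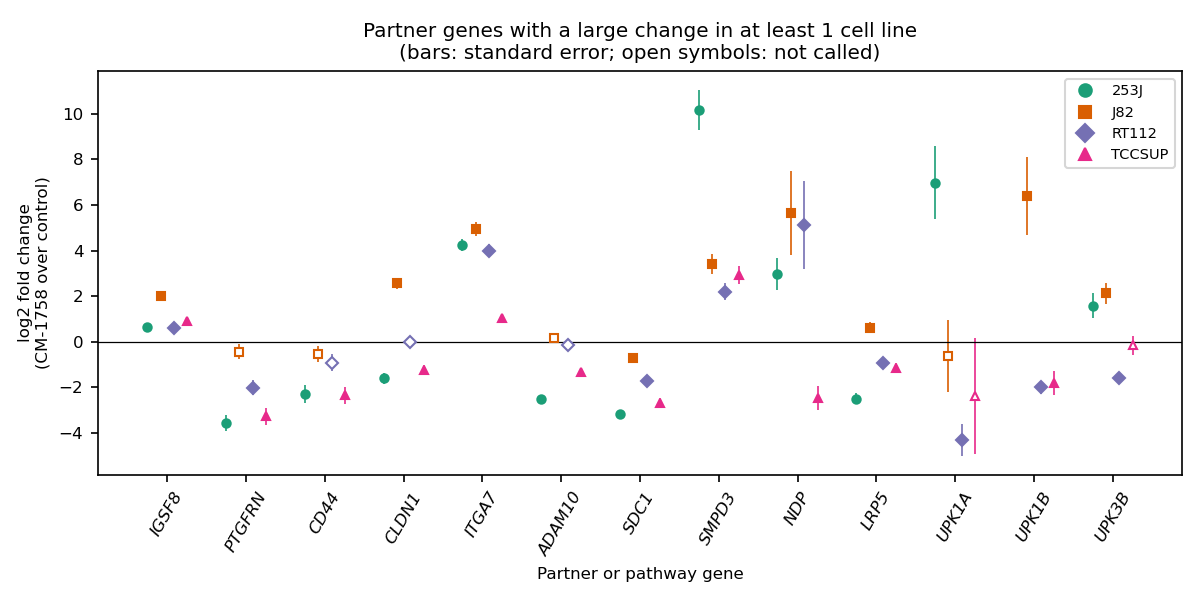
Log2 fold change of CM-1758 over control (y axis) of the 13 partner and pathway genes with a large change in at least 1 cell line (x axis), 1 symbol per line, with bars for the standard error and open symbols for genes not called. PTGFRN, CD44 and SDC1 sit below 0 in every line, ITGA7 and SMPD3 sit above 0 in every line, and the high values of SMPD3 and UPK1A in 253J, of NDP in J82 and RT112 and of UPK1B in J82 have control libraries at 0 counts, so their height is not a measured size.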

How the data were processed

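The members and the gene lists were chosen with earlier results of these data known. RNA with ribosomal RNA removed was sequenced from stranded total RNA libraries on a NovaSeq instrument, and the submitters' processing notes name HISAT2, StringTie and GRCh37, with no versions or roles. The authors deposited raw counts, the whole number of reads per gene symbol in each library, without normalization, and whether counting used strand is not given in the sources used here. From these counts, low genes were removed by filterByExpr with the 8 groups given, and the rest were scaled by TMM and fitted in edgeR 4.0.16 (R 4.3.3) with 1 mean per group, which left 8 residual degrees of freedom. Contrasts of CM-1758 against control were taken per cell line with the quasi-likelihood F test, and p-values were adjusted by Benjamini-Hochberg over all 21297 tested genes. The interaction and the control levels were F tests of 3 contrasts each, followed by contrasts between pairs of lines. Standard errors were taken as the log2 fold change over the root of its F value. The study itself used DESeq2. CPM used TMM-scaled library sizes, and CPM per kb used merged exon lengths of GENCODE v29. A count of 3 per library was the floor for lower bounds, which cover counting error only. With 2 libraries per group, the spread was shared across groups and genes. The 2 libraries of a group correlated at 0.983 to 0.991 in log2 CPM and differed by more than sampling noise (chi-square per degree of freedom from 11.7 to 73.1, highest in J82 control). Members were named if they had a large change, were called in all 4 lines, or were CD9, CD63, CD81, CD82 or CD151; partners if they had a large change, or were among up to 3 others of their list in order of mean level. SDCBP was named after its values were seen. In simulated data for the contrast of CM-1758 against control, 172 of 200 genes changed 4-fold were called. There were 7 other calls, summed over the contrasts of the 4 lines with 21297 genes in each. The changed genes were drawn from those above a floor of expected counts and were far fewer than those called in the data. The simulation therefore does not cover low members or broad change. Alternatives were RLE scaling, library size alone, DESeq2 1.42.0, edgeR with each line alone, no filter, at least 10 counts in every library, 7 abundant small noncoding RNA genes left out, the replicate number as a block, and each library left out, with counts without CD53, TSPAN18 and TSPAN8 added after seeing the data.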

Additional observations from a re-analysis of the deposited data

Results flagged for a closer look

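The response to CM-1758 differed between the cell lines for 14 of the 16 tetraspanins described with values in every library, by the interaction test of edgeR adjusted over all tested genes. Of all tested genes 51.9% passed it, and these 16 were in part named for a large change or for calls in all lines, so the count is no evidence about the family. The adjusted p was 7.55e-08 for TSPAN12, 2.64e-07 for TSPAN13, 1.46e-06 for TSPAN33, 8.43e-06 for TSPAN7 and 1.71e-05 for TSPAN8. TSPAN12 fell in RT112 and rose in the other lines, and TSPAN8 rose in 253J and fell in the others. The value of TSPAN8 includes the fall in RT112 that was known when the members were chosen, and is a description. The adjusted p was 4.21e-05 for TSPAN31, 5.88e-05 for TSPAN15, 0.000213 for CD81, 0.000715 for CD82, 0.000877 for CD151 and 0.00157 for TSPAN1, and J82 had the highest log2 fold change of the lines for TSPAN31, TSPAN15, CD82, CD151 and TSPAN1. It was 0.00401 for TSPAN19, 0.0043 for ROM1 and 0.0478 for CD9. For TSPAN7 and TSPAN19 the lines with 0 counts in control give a fold change that is not a measured size, so the size of the difference is not known. The dose of CM-1758 was the IC50 of each line, and dose and line cannot be told apart.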

How the results depend on the processing

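The fold changes of the 16 members described with values in every library were recomputed under the alternatives, and those of other members and of partner genes were not. Of these values 520 of 556 kept their direction and their side of the threshold under alternatives other than leaving out a library, and 214 of 256 did when a library was left out. Requiring at least 10 counts in every library removes members that were silent or low in a line, such as TSPAN12 with 10 and 7 counts in TCCSUP control. The number of members left and the shares of all genes under this filter are not given here. The counts with it therefore cannot be set against the shares given earlier. The members called higher were then 2 in TCCSUP, 8 in J82 and 2 in 253J. Large changes were then 1 in TCCSUP, 0 in RT112, 3 in J82 and 1 in 253J, and the median log2 fold change of the members was -0.94 in 253J and 0.14 in RT112. With library size alone the medians were -0.11 in 253J, 0.21 in RT112 and -0.23 in TCCSUP. Without a filter the median in 253J was -0.15. With edgeR on each line alone, 3 members were lower in J82. Leaving out each library in turn gave 4 to 4 members higher and 11 to 12 lower in 253J, with 1 to 2 large changes, and 10 to 12 higher and 3 to 6 lower in J82, where 3 were lower without control replicate 1 and without CM-1758 replicate 3. The large change in 253J was 1 without CM-1758 replicate 3. The median of the members ran from 0.34 without control replicate 3 and 0.35 without CM-1758 replicate 3 to 0.64 in J82, from -0.70 to -0.41 in TCCSUP and from -0.46 to -0.29 in 253J. In RT112 it was 0.11 without control replicate 1, 0.0013 without control replicate 2, 0.019 without CM-1758 replicate 1 and 0 without CM-1758 replicate 2. Some values that were not called changed sign. CD9 in 253J had a log2 fold change of 0.153 with library size alone and ran from -0.303 to 0.0708 when a library was left out. CD9 in RT112 had 0.0572 with RLE, 0.0572 with DESeq2 in 1 model, 0.127 with library size alone and 0.108 with at least 10 counts, and ran from -0.0690 to 0.0194. ROM1 in TCCSUP had 0.258 with library size alone and 0.0990 with at least 10 counts, and ran from -0.197 to 0.0735. TSPAN15 in RT112 had 0.0295 and 0.0107 under these settings. CD81 in J82 ran from -0.105 without control replicate 3 to 0.531 without control replicate 1, where it was called. With the replicate number as a block, genes called over the whole table went from 11518 to 11965 in TCCSUP, 10150 to 10692 in RT112 and 9044 to 9683 in J82. In 253J only replicate 3 was shared by control and CM-1758. The block therefore left 1 control and 1 treated library to set the fold changes of 253J, and the median there was -0.12. Its calls with the block cannot be read like those of the other lines. Deviations of same-numbered libraries correlated at 0.0173 in TCCSUP, 0.0427 in RT112, 0.218 in J82 and 0.0529 in 253J. Nothing in the labels says that a number marks a shared culture or day, so the pairing is not established. Among the named members the block ended the call of TSPAN19 in J82 and brought CD151 in J82 past the threshold. It also ended the calls of TSPAN19, TSPAN31 and TSPAN33 in 253J, where it rests on the replicate 3 pair alone. The causes of these changes were not tested. Counts under about 10 in a library, as for TSPAN8 in 253J control, TSPAN12 in TCCSUP control and TSPAN19, limit the precision of their fold changes.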
